A study of Mus musculus with 32 samples.

Results

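The mouse genome encodes 4 T cell factor/lymphoid enhancer factor (TCF/LEF) genes, Tcf7l1, Tcf7l2, Tcf7 and Lef1, and their mRNA levels are described here in wild-type and mutant embryonic stem (ES) cells. They were found by gene symbol in a table of read counts and are 4 of its 51826 genes. All 4 passed the filter on low counts, which left 18892 genes for testing. Tcf7l1 (ENSMUSG00000055799.13) lies on the minus strand of chromosome 6 at chr6:72626378-72789254 (GRCm38) and encodes the protein that stem cell biologists call TCF3. Tcf7l2 (ENSMUSG00000024985.18, protein TCF4) is at chr19:55741810-55933654 on the plus strand, Tcf7 (ENSMUSG00000000782.15, protein TCF1) at chr11:52252371-52283014 on the minus strand and Lef1 (ENSMUSG00000027985.14) at chr3:131110471-131224356 on the plus strand.

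TCF/LEF proteins bind the same short DNA motif through a high mobility group domain and carry no strong activity of their own. Without a Wnt signal they recruit TLE (Groucho) corepressors, and when the kinase GSK3 is inhibited β-catenin accumulates, enters the nucleus and binds them. In ES cells TCF3 is known mainly as a repressor of naive pluripotency genes, whereas TCF1 and LEF1 act mainly as β-catenin-dependent activators.

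The study asked how ES cells leave naive pluripotency, and sequenced ribosomal RNA-depleted total RNA from 32 libraries in 11 conditions. All cells were RGd2 ES cells, which carry a destabilised GFP at the Rex1 locus, or deletion mutants made in them, so every group shares the reporter. RGd2 controls were taken in 2i (an inhibitor of MEK together with the GSK3 inhibitor Chiron), in 2i at passage 5 (2ip5), in Chiron at passage 2 (CHp2), and in N2B27 basal medium without inhibitors at 16 h (N16h) and 72 h (N72h). Rbpj-KO and Etv5-KO cells, which lack the Notch pathway transcription factor RBPJ or the ETS factor ETV5, were taken in 2i and at N16h. Etv5 and RbpJ double knockouts (ER-dKO) were taken in Chiron at passage 5 (CHp5), and Etv5, Tcf3 and RbpJ triple knockouts (ETR-tKO) in N2B27 at passage 5 (Np5). Each condition had 3 libraries, except Etv5-KO N16h with 2. Each mutant library came from 1 clonal line, so a difference between mutant libraries is also a difference between clones. Per the study's methods, mutant lines were made by transfection, drug selection and picking of clones. In comparisons with RGd2 these steps cannot be told apart from loss of the gene. The Rbpj-KO clones c28, c33 and c36 appear in both cultures, and of the Etv5-KO clones c16, c17 and c1 only the last 2 were sequenced at N16h. The labels name the ETR-tKO lines (ETc1)Rc53, (Tc1)ERc2 and (Tc1)ERc10, of which the last 2 share the bracketed name Tc1. Every RGd2 group held 2 libraries of the parental line and 1 of a clone derived from it, so the controls are cultures of the parental line and 1 clone. The main tests used 1 fit of all 32 libraries, so their p-values rest on a spread shared by control cultures and mutant clones.

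The libraries held 5986857 to 71439411 gene reads, with 92 spike-in RNAs added to each, and values were scaled by the spike-ins. "Normalized count" below is the read count divided by the library's spike-in size factor. Naive and general ES cell markers were above 1 FPKM for 8 of 8 genes in every condition but RGd2 N72h, where 6 were, and markers of primitive endoderm and fibroblasts summed to at most 15.2 FPKM in any library. Neural markers summed to 77.0 to 92.4 FPKM in RGd2 N72h and 67.4 to 70.7 in ETR-tKO Np5. They summed to 23.4 to 25.8 in RGd2 2ip5 and 48.1 to 57.4 in RGd2 2i. Formative markers summed to 524 to 538 FPKM in RGd2 N72h and 31.7 to 33.8 in RGd2 2ip5. The 6 trophectoderm markers summed to 115 to 121 FPKM in RGd2 N72h, nearly all of it from the keratin gene Krt18 at 118 ± 2.9 FPKM (SD, n = 3), the 1 gene of the list that reached 1 FPKM there. Against 2ip5, Krt18 was called higher and Cdx2, Tfap2c and Eomes lower, and the part of all these markers in the results was not tested. The targeted genes were checked first. Etv5 was at 1112 to 3373 normalized counts in the libraries of Etv5 mutants and at 8772 to 16791 in RGd2. Rbpj was at 976 to 1249 in Rbpj-KO 2i against 3981 to 5097 in RGd2 2i, and at 2497 to 2797 against 12327 to 12766 at N16h. In the library of ER-dKO replicate 12 (clone ERc9) it reached 3489, above the 2830.2 to 3385 of RGd2 2ip5 and below the 3814 to 4338 of RGd2 CHp2. Rbpj in the other ER-dKO libraries was at 1138 and 1307. In ETR-tKO Np5 it was at 1559, 2281 and 2348, below every RGd2 2ip5 library. RGd2 2i replicate 33, the shallowest library and the 1 of the clonal line in its group, stood apart from its partners. Depth and line cannot be told apart there, and without it only parental cultures of that group remain. The chi-square per gene between replicate 33 and its partners was 43.3 and 44.3, against 3.39 to 22.8 for 27 other replicate pairs and 24.9 and 29.6 for the pairs with ETR-tKO replicate 13. Called changes of the 4 genes that rest on these 3 libraries are given with and without them.

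The guide RNAs that the study used against Tcf7l1 show which part of the gene was targeted in the ETR-tKO lines, and both are printed 5′ to 3′ with the adjacent PAM (protospacer adjacent motif) in capitals.
Guide for exon 1: tcagctcgtcgttcgctccgAGG
Guide for exon 3: gagacaggggtccgttggagAGG
Matched to GENCODE vM21 transcripts, both lie in coding sequence antisense to the transcript, at chr6:72788844-72788863 and chr6:72788228-72788247. The span between and including them was 636 bases and held 329 of the 3924 exonic bases over which reads were counted. Hence 91.6% of the counted sequence lies outside it, and a read count of Tcf7l1 in these lines can come from an edited transcript.

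Promoter windows from RefSeq (GRCm38.p6, the bases around an annotated start) were found for 4 of 4 genes, 9 windows in all. They were searched on both strands for GTGGGAA, a core bound by RBPJ, for CCGGAAG, a core bound by ETS factors, and for the TCF/LEF cores CTTTGAT and CTTTGTT. The windows of Lef1 and Tcf7l1 that hold the RBPJ core are shown because Lef1 was lower in every mutant here and Tcf7l1 was not, with the matched letters in capitals.
Lef1, chr3:131110047-131110346, plus strand: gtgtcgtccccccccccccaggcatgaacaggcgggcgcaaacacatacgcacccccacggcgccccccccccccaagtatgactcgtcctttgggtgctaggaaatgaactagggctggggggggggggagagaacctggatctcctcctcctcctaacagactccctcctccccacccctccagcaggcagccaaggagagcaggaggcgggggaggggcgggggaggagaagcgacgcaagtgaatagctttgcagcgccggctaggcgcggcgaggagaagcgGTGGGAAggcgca
Tcf7l1, chr6:72788996-72789295, minus strand: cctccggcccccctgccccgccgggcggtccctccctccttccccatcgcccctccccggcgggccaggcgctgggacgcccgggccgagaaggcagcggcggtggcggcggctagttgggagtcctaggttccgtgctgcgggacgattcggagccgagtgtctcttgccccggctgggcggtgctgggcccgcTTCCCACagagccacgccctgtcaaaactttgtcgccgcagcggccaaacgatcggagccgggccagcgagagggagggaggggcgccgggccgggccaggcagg
The Lef1 match is at chr3:131110334-131110340, 131 bases before the start of the gene model used for counting. It lies 37 bases after the RefSeq start of the printed window, and recurs in an overlapping window, 11 bases after the RefSeq start there. The Tcf7l1 match, at chr6:72789094-72789100, reads on the opposite strand and is at -55 from its RefSeq start. A window of Tcf7 held CCGGAAG and a window of Tcf7l2 held CTTTGTT, and no other match was found. Of 32817 mouse promoter windows, 6.39% held GTGGGAA, 8.86% CCGGAAG and 9.34% one of the TCF/LEF cores, and these matches are letters in a window, not measured binding.

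Compared per length, as FPKM (fragments per kilobase of exon, scaled to the number of counted reads in the library), Tcf7, Tcf7l1 and Lef1 were all well expressed in RGd2 cells and Tcf7l2 was near the limit. In RGd2 2i, Tcf7 was at 12.3 ± 1.3 FPKM (SD, n = 3), Tcf7l1 at 10.4 ± 3.1 and Lef1 at 6.03 ± 0.18. Tcf7l2 was at 0.546 ± 0.191 FPKM and stayed below 1 FPKM in all 11 conditions. Because a call here needs a mean of at least 1 FPKM in a group being compared, Tcf7l2 could not be called in any comparison, and where it passed on the adjusted p-value alone this is stated.

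**Figure D1:**
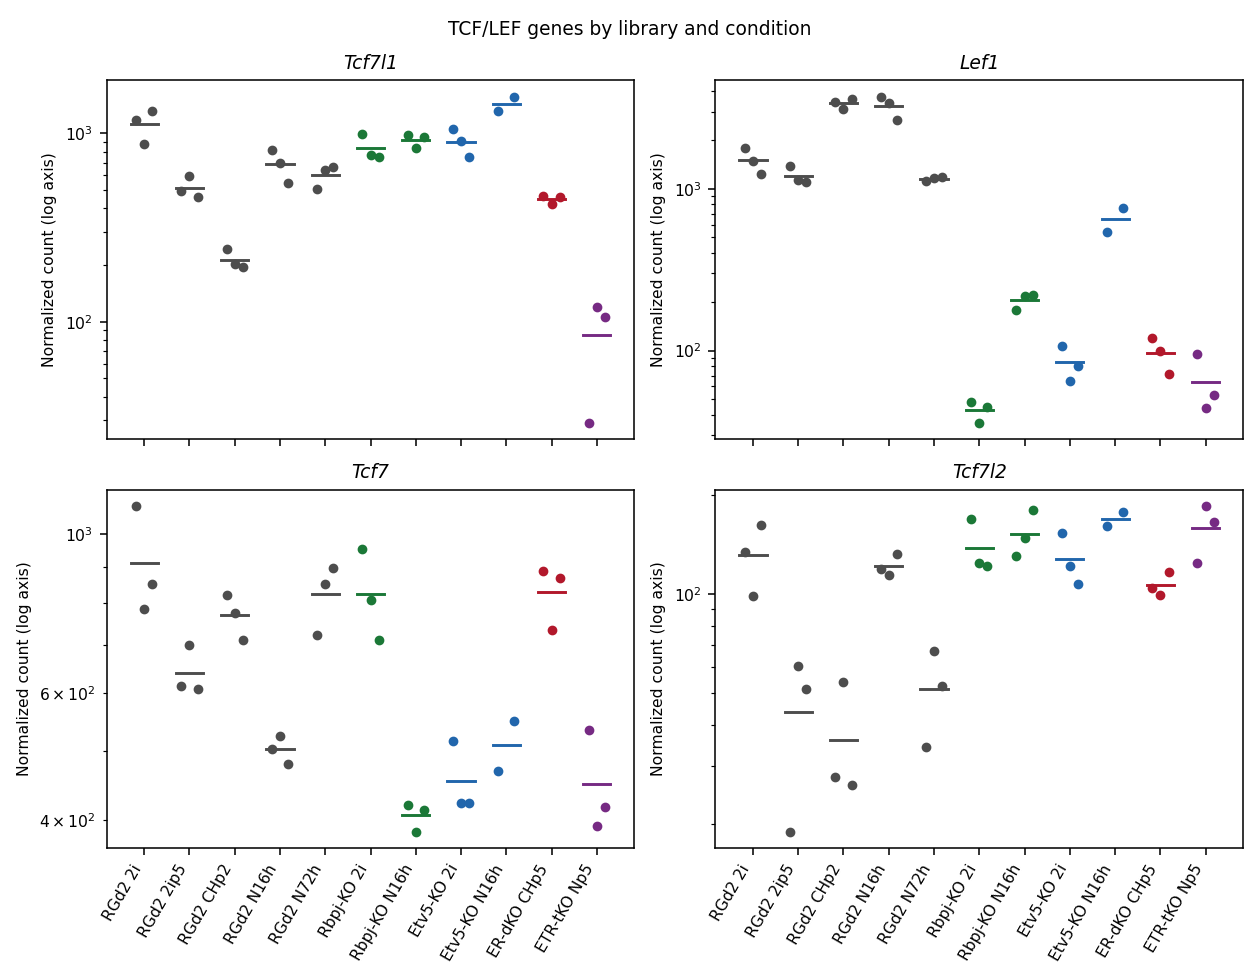
Normalized count (log axis) of each TCF/LEF gene in every library, 1 point per library and a bar at the condition mean, by condition. The Lef1 points of the mutants lie below those of every RGd2 library, and those of Tcf7l1 are lowest in ETR-tKO Np5, from 29.1 to 120.4.

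The 4 genes followed different patterns over the conditions. Lef1 had the widest range of condition means, from 42.9 normalized counts in Rbpj-KO 2i to 3377 in RGd2 CHp2. Tcf7l1 ran from 85.4 in ETR-tKO Np5 to 1441 in Etv5-KO N16h, Tcf7l2 from 35.9 in RGd2 CHp2 to 168.5 in Etv5-KO N16h, and Tcf7 only from 407 in Rbpj-KO N16h to 910.2 in RGd2 2i. In the order of Lef1 levels, RGd2 CHp2 and RGd2 N16h overlapped at the top, RGd2 2i, 2ip5 and N72h followed with neighbours that overlapped, and gaps separated N72h, Etv5-KO N16h, Rbpj-KO N16h and the remaining mutants from each other. ER-dKO CHp5, Etv5-KO 2i, ETR-tKO Np5 and Rbpj-KO 2i formed the bottom of that order, each overlapping the next. In the order of Tcf7l1 levels, gaps set apart only RGd2 CHp2 (194 to 245) from ER-dKO CHp5 above it and from ETR-tKO Np5 below it. Tcf7l2 had 1 gap, between ER-dKO CHp5 (99.1 to 117) and RGd2 N72h (34.2 to 67.1). Over the 11 condition means of log2 normalized counts, Pearson's r between pairs of the 4 genes was from -0.56 (Tcf7l2 with Lef1) to 0.26 (Tcf7l1 with Tcf7l2), as a description of points that share libraries and scaling.

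The make-up of the family differed with them. Lef1 supplied 21.0 ± 3.5% of the summed TCF/LEF FPKM in RGd2 2i, 49.2 ± 1.7% at N16h, 21.8 ± 1.7% at N72h and 52.2 ± 3.0% in CHp2. Tcf7l1, the repressor, supplied 35.0 ± 5.1% in RGd2 2i and 23.2 ± 1.5% at N16h, where the 3 libraries lay below all 3 in 2i (exact two-sided permutation test p = 0.1, the smallest that 3 against 3 allows). Without RGd2 2i replicate 33 the difference between them was -8.9 percentage points, against -11.8 with it. At N16h its share was 54.5 ± 1.5% in Rbpj-KO and 56.2 ± 0.4% in Etv5-KO (n = 2), each above every RGd2 library (exact two-sided permutation p = 0.1 for both, the smallest possible). A share is part of a sum, so it can be higher only because another member is lower. The level of Tcf7l1 itself did not pass the test in Rbpj-KO N16h. In 2i the share was 53.8 ± 2.4% in Etv5-KO (p = 0.1) and 39.0 ± 1.3% in Rbpj-KO (p = 0.4 in the same exact permutation test). The Rbpj-KO libraries, at 37.5 to 39.8%, lay above RGd2 replicates 31 and 32, at 32.2 and 31.9%, and below replicate 33. Without that replicate the differences from RGd2 were 21.7 and 6.9 percentage points, against 18.8 and 4.0 with it. With shares taken from read counts, the Rbpj-KO libraries (44.3 to 46.2%) lay above all RGd2 ones (27.1 to 36.9%). In ETR-tKO Np5 the summed FPKM was 8.16 ± 1.05, against 22.6 ± 1.5 in RGd2 2ip5, and Tcf7 made up 78.0 ± 7.3% of it.

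**Figure D2:**
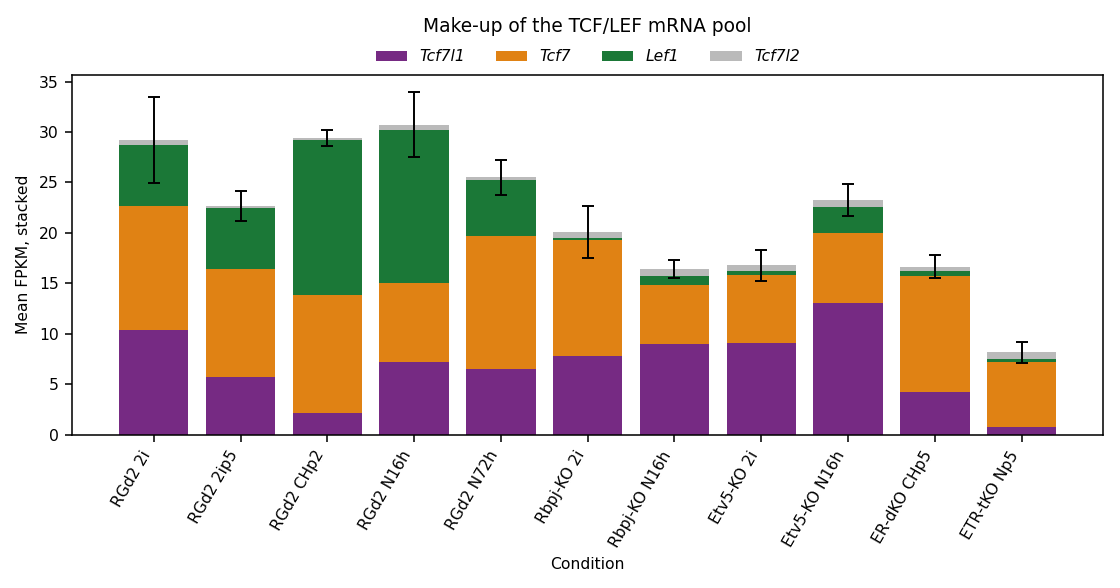
Mean FPKM of the 4 TCF/LEF genes stacked by condition, with the SD over libraries of the summed value. Lef1 fills about as much of the RGd2 N16h and CHp2 bars as the other 3 genes together, is a thin band in the mutants, and the ETR-tKO bar reaches 8.16 FPKM.

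Withdrawal of 2i raised Lef1 and lowered Tcf7l1 and Tcf7. At N16h, Lef1 was at 3711, 3393 and 2659 normalized counts, against 1790.4, 1483 and 1236 in RGd2 2i. It was 2.15-fold higher (log2 fold change 1.10, SE 0.17, adjusted p = 1.20e-06 by edgeR's quasi-likelihood F test and the Benjamini-Hochberg method, as below), and the groups did not overlap. Tcf7l1 was at 814, 698 and 548 at N16h, against 1185, 882 and 1316 in 2i. It was 1.62-fold lower (log2 fold change -0.70, SE 0.21, adjusted p = 0.00761), again without overlap. Tcf7 was at 503, 523 and 479, against 1093, 786 and 852, and was 1.82-fold lower (log2 fold change -0.86, SE 0.13, adjusted p = 1.68e-06). Thus 3 of the 4 genes were called, in a comparison in which 46% of 11748 expressed genes were, and the median change over every gene tested was -0.23. Without RGd2 2i replicate 33 the changes of Lef1, Tcf7l1 and Tcf7 were 0.99, -0.58 and -0.90, all still past the threshold. Without RGd2 N16h replicate 24, the clonal line, the log2 fold change of Tcf7l1 was -0.56 and its adjusted p 0.0572, and with DESeq2 size factors on the gene counts -0.48 and 0.0582.

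At N72h Lef1 was lower and Tcf7 higher than at N16h. The N16h and N72h cultures can also differ in earlier medium, as described below for 2i and 2ip5. The part of this in the differences was not tested. Lef1 at N72h was at 1122, 1160.2 and 1175 normalized counts, below every N16h library, a 2.83-fold difference (log2 fold change -1.50, SE 0.17, adjusted p = 7.82e-10). Tcf7 was at 723, 851 and 896 and was 1.64-fold higher (log2 fold change 0.71, SE 0.13, adjusted p = 1.70e-05). Tcf7l1 was at 508, 639 and 664, which overlapped N16h (log2 fold change -0.19, SE 0.21, adjusted p = 0.468). Tcf7l2, with 34.2, 67.1 and 52.4 against 119, 114 and 132.0, passed on adjusted p alone (log2 fold change -1.26, SE 0.26, adjusted p = 6.18e-05), as did 53.9% of all tested genes. Mean normalized counts of Tcf7l2 were 51.3 at N72h, 43.6 in 2ip5 and 35.9 in CHp2, against 131 in 2i and 122 at N16h. The 2 called genes stand against 60.9% of 12280 expressed genes.

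Lef1 at N72h was thus near its level in 2i at passage 5. In RGd2 2ip5 it was at 1388, 1137 and 1094, and the difference from N72h was -0.06 on the log2 scale (SE 0.17, adjusted p = 0.802). Tcf7l1 at 495, 592 and 463 did not pass the test either (log2 difference 0.23, SE 0.22, adjusted p = 0.405). Tcf7, at 615, 701 and 609 in 2ip5, was the 1 gene called between these conditions (0.36, SE 0.13, adjusted p = 0.0240), where 57.1% of expressed genes were. That call was lost without RGd2 2ip5 replicate 1 (0.33, adjusted p = 0.0701) or 3 (0.32, 0.0905), without RGd2 N72h replicate 8 (0.34, 0.0638) or 9 (0.29, 0.115), and with TMM scaling (0.22, 0.101).

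In Chiron alone, where GSK3 is inhibited and MEK is not, Lef1 was higher and Tcf7l1 lower than in 2ip5. Lef1 was at 3459, 3104 and 3569 in CHp2 and was 2.81-fold higher than in 2ip5 (log2 fold change 1.49, SE 0.17, adjusted p = 2.54e-09). Tcf7l1 was at 245, 202 and 194 and was 2.43-fold lower (log2 fold change -1.28, SE 0.24, adjusted p = 2.91e-05). For both genes the 3 libraries of each culture did not overlap. Tcf7, with 823, 776 and 712, was above every 2ip5 library but did not pass the test (0.26, SE 0.14, adjusted p = 0.131). The 2 calls compare with 42.2% of 12054 expressed genes and an all-gene median of 0.17. Against N72h, CHp2 again had higher Lef1 (1.55, SE 0.17, adjusted p = 1.40e-09) and lower Tcf7l1 (-1.51, SE 0.23, adjusted p = 2.30e-06), where 37.1% of expressed genes were called. Both comparisons use the same CHp2 libraries. CHp2 was at passage 2 and 2ip5 at passage 5, so passage cannot be told apart from medium there. The 6 mesendoderm markers summed to 70.4 to 74.2 FPKM in CHp2 against 8.95 to 10.1 in 2ip5, with 0 of the 6 without a read. The gene T, which is also on the list of Wnt targets, was the 1 of these 6 that was called, and 2 of 6 reached 1 FPKM. The 6 trophectoderm markers summed to 67.0 to 90.0 FPKM against 23.4 to 29.1, with Krt18 and Cdx2 called higher and 0 lower. The formative markers summed to 124 to 145 FPKM against 31.7 to 33.8, with 6 of 6 called higher. The part of these markers in the change of Lef1 and Tcf7l1 was not tested. In such bulk samples fewer cells that express a gene and less RNA per cell cannot be told apart.

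The RGd2 2i cultures themselves differed. Per the study's methods, lines were kept as a routine in Chiron with the added factor LIF and moved to 2i shortly before an assay. The study marks some of its sequenced samples as prepared in this way. The cultures labelled 2i and 2ip5 can thus differ in earlier medium as well as in passage. The part of either in the differences below was not tested. In 2ip5 the level of Tcf7l1 was 2.16-fold below that in 2i (log2 fold change -1.11, SE 0.22, adjusted p = 1.42e-04) and that of Tcf7 was 1.42-fold below (-0.51, SE 0.14, adjusted p = 0.00319). Tcf7l2 passed on adjusted p alone (-1.44, SE 0.28, adjusted p = 1.27e-04), as did 38.6% of tested genes, with 18.9, 60.5 and 51.4 normalized counts in 2ip5 from 8 to 50 reads. Lef1 overlapped between them (-0.34, SE 0.17, adjusted p = 0.115). The all-gene median was -0.37 and 52.3% of expressed genes were called, so relative to that median Tcf7l1 was lower by -0.74 and Tcf7 by -0.14. The call of Tcf7 was lost without RGd2 2i replicate 31 (-0.34, adjusted p = 0.0776) and with TMM scaling (-0.16, adjusted p = 0.355), and without RGd2 2i replicate 33 Lef1 passed (-0.45, adjusted p = 0.0278). Without that replicate Tcf7l1 still passed (adjusted p = 2.53e-04), as did Tcf7 (-0.55) and Tcf7l2 (-1.32).

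**Figure D3:**
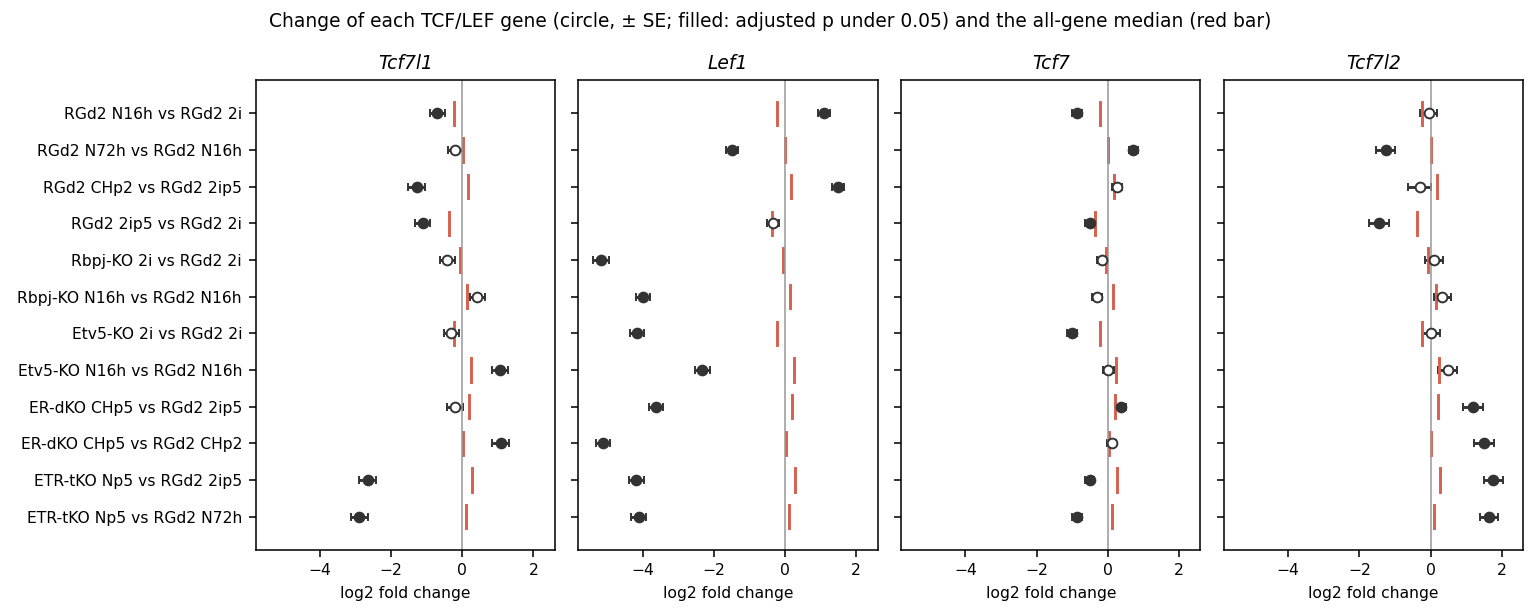
Log2 fold change of each TCF/LEF gene (circle, with its standard error) in 12 comparisons, filled where the adjusted p-value is under 0.05, with the median over all tested genes as a red bar. The Lef1 circles of all 8 mutant comparisons lie between -5.17 and -2.32, while those of Tcf7l1 are lowest in ETR-tKO, at -2.66 and -2.88.

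Against RGd2, Lef1 was the 1 TCF/LEF gene called in Rbpj-KO in either culture. Lef1 was at 48.4, 35.8 and 44.6 normalized counts in clones c28, c33 and c36 in 2i, from 23 to 53 reads, and at 178, 219 and 219 at N16h. The log2 fold change against RGd2 was -5.17 (SE 0.23, adjusted p = 9.88e-20) in 2i, where 11.4% of expressed genes were called. At N16h it was -3.99 (SE 0.19, adjusted p = 6.91e-19), where 22.2% were. Relative to the all-gene median it was -5.11 in 2i, and without RGd2 2i replicate 33 it was -5.28. Tcf7l1 was at 997, 769 and 751 in Rbpj-KO 2i, which overlapped RGd2 (-0.42, SE 0.21, adjusted p = 0.245). At N16h it was at 978, 835 and 957, above every RGd2 library without passing the test (0.42, SE 0.21, adjusted p = 0.168). Tcf7 was at 951, 809 and 711 in 2i (-0.16, SE 0.13, adjusted p = 0.561) and at 421, 385 and 414 at N16h, below every RGd2 library (-0.30, SE 0.14, adjusted p = 0.126). Tcf7l2 overlapped RGd2 in both cultures, with adjusted p of 0.876 and 0.395. With TMM scaling the lower Tcf7 at N16h passed the threshold (-0.45, adjusted p = 0.00516), and in a fit of only the libraries compared so did Tcf7l1 (0.42, adjusted p = 0.0129). At N16h the naive and general ES cell markers summed to 1106 to 1182 FPKM in Rbpj-KO and 884 to 908 in RGd2, with 7 of 8 called higher. The formative markers summed to 85.9 to 92.5 FPKM against 149 to 185, with 4 of 6 called lower and 0 higher, and the part of either in the low Lef1 was not tested.

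Etv5-KO cells also had low Lef1, and which other members differed from RGd2 depended on the culture. In 2i, Lef1 was at 107, 65.0 and 80.7 in clones c16, c17 and c1, a log2 fold change of -4.16 (SE 0.20, adjusted p = 3.66e-19) from RGd2. Tcf7 was at 516, 423.0 and 423.2, below every RGd2 2i library, and was 2.01-fold lower (-1.01, SE 0.13, adjusted p = 2.12e-07). Tcf7l1 was at 1052, 909 and 752 and did not pass the test (-0.30, SE 0.21, adjusted p = 0.289). These 2 calls stand against 34% of 11569 expressed genes, and the all-gene median was -0.23. Without RGd2 2i replicate 33 the changes of Lef1 and Tcf7 were -4.27 and -1.05.

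At N16h, Etv5-KO clones c17 and c1 had 1312 and 1570 normalized counts of Tcf7l1, the highest condition mean and 2.09-fold above RGd2 N16h (log2 fold change 1.07, SE 0.23, adjusted p = 3.84e-04). Lef1 was at 540.5 and 763 in these clones, 4.99-fold below RGd2 (-2.32, SE 0.20, adjusted p = 1.41e-11). Tcf7 was at 468 and 549, around the RGd2 values (0.02, SE 0.15, adjusted p = 0.951). Here 32.5% of expressed genes were called and the all-gene median was 0.24, so relative to it Tcf7l1 was higher by 0.83. Naive and general ES cell markers summed to 1307 to 1398 FPKM in these 2 libraries and to 884 to 908 in RGd2 N16h, with 8 of 8 called higher. Formative markers summed to 91.8 to 101 FPKM against 149 to 185, with 5 of 6 called lower. The part of either in the levels of Tcf7l1 and Lef1 was not tested.

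The response to 2i withdrawal differed between Etv5-KO and RGd2 for 3 of the 4 genes. Within Etv5-KO, Lef1 rose 7.68-fold from 2i to N16h (log2 fold change 2.94, SE 0.21, adjusted p = 6.53e-15), and Tcf7l1 was 1.59-fold higher (0.67, SE 0.22, adjusted p = 0.0176), where 40.7% of expressed genes were called and the all-gene median was 0.24. The latter call was lost without Etv5-KO 2i replicate 27 (0.56, adjusted p = 0.0968), without Etv5-KO N16h replicate 18 (0.54, adjusted p = 0.195) and with TMM scaling (0.44, adjusted p = 0.106). In the test of the difference between responses, Lef1 was higher by 1.84 (SE 0.27, adjusted p = 1.86e-06), Tcf7l1 by 1.37 (SE 0.31, adjusted p = 0.00105) and Tcf7 by 1.03 (SE 0.20, adjusted p = 1.77e-04) on the log2 scale. In this test 37.3% of expressed genes were called and the all-gene median was 0.47, so the excess over that median was 1.37, 0.90 and 0.56. For Lef1 this is a difference of log ratios from a low start. Its mean went from 84.3 normalized counts (0.377 FPKM) to 652 in Etv5-KO, and from 1503 to 3255 in RGd2. Thus Lef1 in Etv5-KO N16h was still below its level in RGd2 2i. For Tcf7l1 the 2 genotypes moved in opposite directions, downward in RGd2 and upward in Etv5-KO. Tcf7 did not pass the test within Etv5-KO (0.16, SE 0.15, adjusted p = 0.427). Its mean went from 454 to 508 normalized counts there and from 910 to 502 in RGd2. Without RGd2 2i replicate 33 the differences of Lef1, Tcf7l1 and Tcf7 were 1.95, 1.26 and 1.06. All of these values rest on 2 Etv5-KO libraries at N16h.

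In Rbpj-KO, Lef1 at N16h was above its 2i level in every clone, a 4.86-fold difference (log2 fold change 2.28, SE 0.24, adjusted p = 6.92e-10). Its mean stayed below 1 FPKM in both, so it was not called, though it passed on adjusted p alone, as did 23.1% of tested genes. Its mean normalized count went from 42.9 to 205 in Rbpj-KO and from 1503 to 3255 in RGd2. Tcf7 was 2.01-fold lower at N16h than in 2i (-1.01, SE 0.14, adjusted p = 2.09e-07), where 27.9% of expressed genes were called, and Tcf7l1 was at 0.15 (SE 0.21, adjusted p = 0.687). The response of Tcf7l1 differed from that of RGd2 by 0.84 (SE 0.30) and did not pass the test (adjusted p = 0.123), nor did that of Tcf7 (-0.15, SE 0.19, adjusted p = 0.742). For Lef1 the test of the difference gave 1.18 (SE 0.30, adjusted p = 0.0176), with 4.03% of expressed genes called. It lost the threshold without RGd2 2i replicate 31 (1.03, 0.0819), RGd2 N16h replicate 24 (1.05, 0.0540), Rbpj-KO 2i replicate 29 (1.05, 0.105) or Rbpj-KO N16h replicate 21 (1.13, 0.0502), and with TMM scaling (0.98, adjusted p = 0.0670), while without RGd2 2i replicate 33 it was 1.29 (adjusted p = 0.00367).

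**Figure D4:**
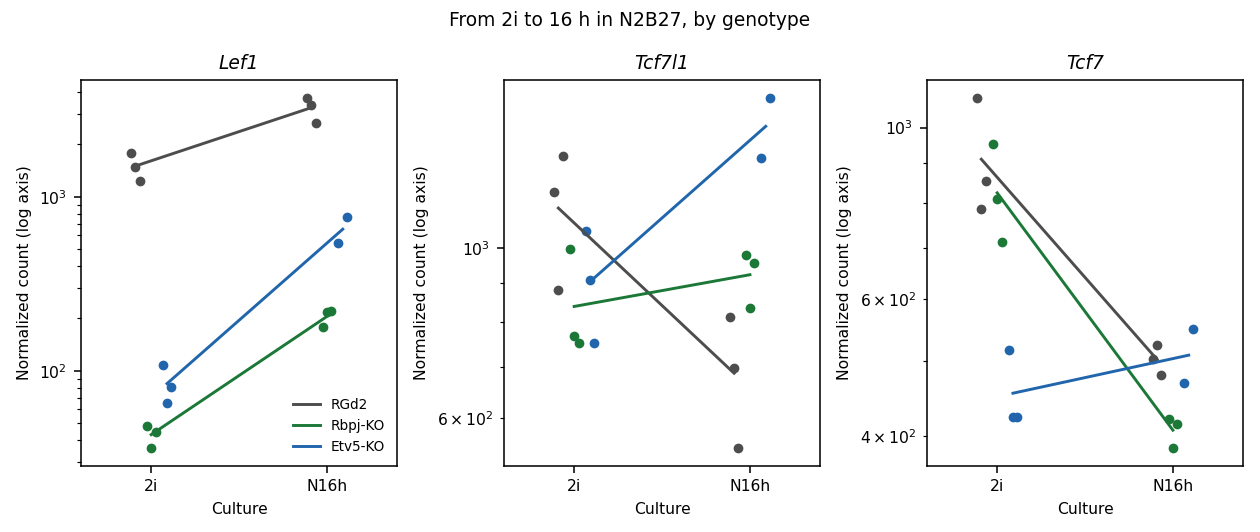
Normalized counts (log axis) of Lef1, Tcf7l1 and Tcf7 in 2i and at N16h in RGd2, Rbpj-KO and Etv5-KO, with 1 point per library and a line between condition means. The Lef1 lines climb in all 3 genotypes from different starting levels, while the Tcf7l1 line of RGd2 descends and that of Etv5-KO climbs to 1441.

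The double mutant had low Lef1 in Chiron. ER-dKO CHp5 held 120.0, 99.1 and 72.1 normalized counts of Lef1, a log2 fold change of -5.11 (SE 0.20, adjusted p = 2.18e-22) from RGd2 CHp2 and of -3.62 (SE 0.19, adjusted p = 4.75e-18) from RGd2 2ip5. Without ER-dKO replicate 12 the values were -4.96 and -3.47. In that library Rbpj was above the range of RGd2 2ip5 and below that of RGd2 CHp2. All 3 clones lay below every RGd2 library. Tcf7l1 was at 464, 423 and 458, above every RGd2 CHp2 library (1.08, SE 0.23, adjusted p = 1.90e-04) and overlapping RGd2 2ip5 (-0.21, SE 0.21, adjusted p = 0.494). Tcf7 was at 888, 735 and 868, called against 2ip5 (0.37, SE 0.13, adjusted p = 0.0286) but not against CHp2 (0.11, SE 0.13, adjusted p = 0.548). Tcf7l2 was at 103.9, 99.1 and 117 and passed on adjusted p alone in both comparisons (1.49, SE 0.28, adjusted p = 3.20e-05 against CHp2 and 1.19, SE 0.27, adjusted p = 5.74e-04 against 2ip5), as did 44.7% and 33.8% of tested genes. Without replicate 12 Tcf7l1 was at 1.06 and Tcf7l2 at 1.43 against CHp2, and Tcf7l2 at 1.13 against 2ip5, all still past the threshold. Called genes were 49.7% of those expressed against CHp2 and 42.4% against 2ip5. The call of Tcf7 was lost without ER-dKO replicate 10 (0.32, adjusted p = 0.112) or 12 (0.34, 0.0909), without RGd2 2ip5 replicate 1 (0.34, 0.0890) or 3 (0.33, 0.109), and with TMM scaling (0.17, 0.269). The passage also differed between the cultures, 5 against 2, and cannot be told apart from genotype in the comparison with CHp2. In the comparison with 2ip5 the medium differed, Chiron against 2i, and cannot be told apart from genotype either.

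In the triple mutant, Tcf7l1 was targeted. Its normalized counts in ETR-tKO Np5 were 29.1 in (ETc1)Rc53, 120.4 in (Tc1)ERc2 and 107 in (Tc1)ERc10, from 48 to 134 reads, so reads remained in every line and the line without the Tc1 name had the fewest normalized counts. The log2 fold change was -2.66 (SE 0.25, adjusted p = 1.65e-11) from RGd2 2ip5 and -2.88 (SE 0.24, adjusted p = 4.14e-13) from RGd2 N72h. Without replicate 13, (ETc1)Rc53, these were -2.19 and -2.42.

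The other members did not follow a single direction in ETR-tKO. Lef1 was at 95.3, 44.1 and 53.3, a log2 fold change of -4.17 (SE 0.21, adjusted p = 1.98e-19) from 2ip5 and -4.11 (SE 0.21, adjusted p = 5.13e-20) from N72h. Tcf7 was at 535, 393 and 418, 1.43-fold below 2ip5 (-0.51, SE 0.14, adjusted p = 0.00252) and 1.83-fold below N72h (-0.87, SE 0.13, adjusted p = 6.47e-07). Tcf7l2 was at 124, 185 and 166, above every library of 2ip5 and N72h. It passed on adjusted p alone against both (1.76, SE 0.27, adjusted p = 1.20e-06 and 1.64, SE 0.26, adjusted p = 8.94e-07), as did 39.1% and 51.1% of tested genes. At 0.670 ± 0.101 FPKM its level was close to that of Tcf7l1, at 0.795 ± 0.437 FPKM. The 3 called genes stand against 47.3% of 11814 expressed genes in the comparison with 2ip5 and 59.1% of 12338 in that with N72h, and both comparisons use the same ETR-tKO libraries. Without replicate 13 the changes from 2ip5 were -4.61 for Lef1, -0.66 for Tcf7 and 1.91 for Tcf7l2, and those from N72h were -4.55, -1.02 and 1.79. The medium of ETR-tKO differed from that of 2ip5, and its time in N2B27 from that of N72h, passage 5 against 72 h. Neither can be told apart from genotype in these comparisons.

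Genes for partners of the TCF/LEF proteins were read from lists. Ctnnb1, which encodes β-catenin, was at 134 to 163 FPKM in every condition and was not called between RGd2 N16h and 2i (log2 fold change -0.05, SE 0.10, adjusted p = 0.705) or between CHp2 and 2ip5 (-0.13, SE 0.10, adjusted p = 0.323). Of 11 genes for β-catenin and coactivators, 10 of them expressed, 0 were called higher and 4 lower at N16h against 2i, where 46% of expressed genes were called, led by Jup (-0.93, SE 0.13) and Pygo2 (-0.71, SE 0.12), with a median of -0.18 against -0.23 for all tested genes. Of the 16 tested genes for corepressors and antagonists, 3 rose and 3 fell. Tle4 rose (0.97, SE 0.10, adjusted p = 2.18e-10) and so did Tle6 (1.61, SE 0.24), while Tle3 (-0.77, SE 0.13), Tle1 (-0.46, SE 0.11) and Aes (-0.42, SE 0.12), which encodes a short TLE protein without the repressive domains, fell. Tle4 was the TLE gene with the highest FPKM in every condition, from 20.9 in RGd2 N72h to 77.9 in Etv5-KO N16h. In ETR-tKO Np5 against 2ip5, Tle4 was higher (1.04, SE 0.10, adjusted p = 5.21e-11) and Tle6 lower (-0.99, SE 0.25, adjusted p = 0.00170), and 7 of the 16 tested genes of the list were called higher and 2 lower, where 47.3% of expressed genes were called and 79.8% of those were higher.

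Of the 16 tested Wnt/β-catenin target genes, 12 of them expressed, 1 was called higher and 10 lower at N16h against 2i. There 46% of expressed genes were called, and the median log2 fold change of the list was -2.51 against -0.23 for all genes. Cdx2 went from a mean of 297 to 3.06 normalized counts and Sp5 from 487 to 0.421, while Myc rose (1.55, SE 0.16). In CHp2 against 2ip5, 10 were higher, led by T (3.72, SE 0.22) and Nkd2 (3.07, SE 0.29), and 2 lower, Notum (-1.83, SE 0.17) and Axin2 (-0.42, SE 0.14). There 42.2% of expressed genes were called, and the median of the list was 1.12 against 0.17. In Rbpj-KO 2i, 7 were called lower and 1 higher, where 11.4% of expressed genes were called, with a median of -0.49 against -0.06 for all genes. In Etv5-KO 2i, 10 were lower and 0 higher, where 34% were called, with a median of -0.96 against -0.23. At N16h the counts were 4 lower and 2 higher in Rbpj-KO (median -0.34 against 0.15), where 22.2% of expressed genes were called. In Etv5-KO N16h they were 3 lower and 1 higher (-0.05 against 0.24), where 32.5% were called. In ER-dKO CHp5, 9 were lower and 3 higher than in CHp2 (-1.58 against 0.02), where 49.7% of expressed genes were called. Against 2ip5, 4 were lower and 4 higher (0.13 against 0.20), where 42.4% were called. In ETR-tKO Np5, 9 were lower and 2 higher than in 2ip5 (-1.57 against 0.27), where 47.3% of expressed genes were called. Against N72h, however, 2 were lower and 4 higher (0.64 against 0.11), where 59.1% were called. Without replicate 13 the counts against N72h were again 2 and 4, and the median was 0.21. Without RGd2 2i replicate 33 the counts lower and higher were 10 and 1 at N16h, 6 and 1 in Rbpj-KO 2i and 11 and 0 in Etv5-KO 2i.

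The genes that the study names as repressed by TCF3, namely Esrrb, Tfcp2l1, Nanog and Klf2, all fell from 2i to N16h, when Tcf7l1 was also lower. Their log2 fold changes were -1.43, -2.48, -2.48 and -2.55. In that comparison 46% of expressed genes were called, 18.8% of them higher. Per the study, GSK3 inhibition in 2i blocks repression by TCF3, and the activity of TCF3 was not measured here. In Etv5-KO N16h, all 4 were above RGd2 N16h, from 1.01 for Esrrb to 1.79 for Nanog. There 32.5% of expressed genes were called and 90.0% of those were higher. The condition mean of Tcf7l1 was highest there, from 2 libraries that overlapped RGd2 2i. In Rbpj-KO N16h, Nanog (1.38, SE 0.10), Tfcp2l1 and Esrrb were called higher and Klf2 was not (0.55, SE 0.21, adjusted p = 0.0605). There 22.2% of expressed genes were called and 84.6% of those were higher. In ETR-tKO Np5 all 4 were above RGd2 N72h, from 3.66 for Nanog to 4.80 for Tfcp2l1, and against 2ip5 only Nanog was called (0.35, SE 0.10, adjusted p = 0.00641). Called genes were 59.1% of those expressed against N72h, 60.1% of them higher, and 47.3% against 2ip5. The list was chosen by the study and is not independent evidence of its direction.

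Across the 11 conditions, the genes most like Lef1 in pattern were Xlr3a (Pearson's r = 0.97), Ccdc136 (0.94) and Gm21761 (0.91), among 13349 genes expressed in any condition. Xlr3a ran from 32.6 normalized counts in Rbpj-KO 2i to 835 in RGd2 N16h and was at 32.6 to 124 in the mutants, against 225 to 835 in RGd2. Those most like Tcf7l1 were Arl3 (0.92), Ifnlr1 (0.90) and Gm13655 (0.90). Without ETR-tKO Np5, Gm37736 (0.98) and Gm11508 (0.97) led instead and none of the 3 was among the first 10, while Hk2 led with TMM scaling and Pptc7 by Spearman's rho, so this ranking depends on the conditions, the scaling and the measure. For Tcf7 they were Dlat (0.90), Ppargc1b (0.90) and Mien1 (0.88), and for Tcf7l2 they were Ankrd13a (0.98), Cenpo (0.97) and Birc5 (0.97). Other genes led for Tcf7 with TMM scaling (Pigx), by Spearman's rho (Surf4) and without ETR-tKO Np5 (Tomm34). For Tcf7l2, Ankrd13a was not among the first 10 with TMM scaling or by Spearman's rho. The r values over all conditions describe 11 points that share libraries, depth and scaling, and the genes were picked as the highest among all. Xlr3a belongs to a family of near-identical copies, so its count is uncertain.

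**Figure D5:**
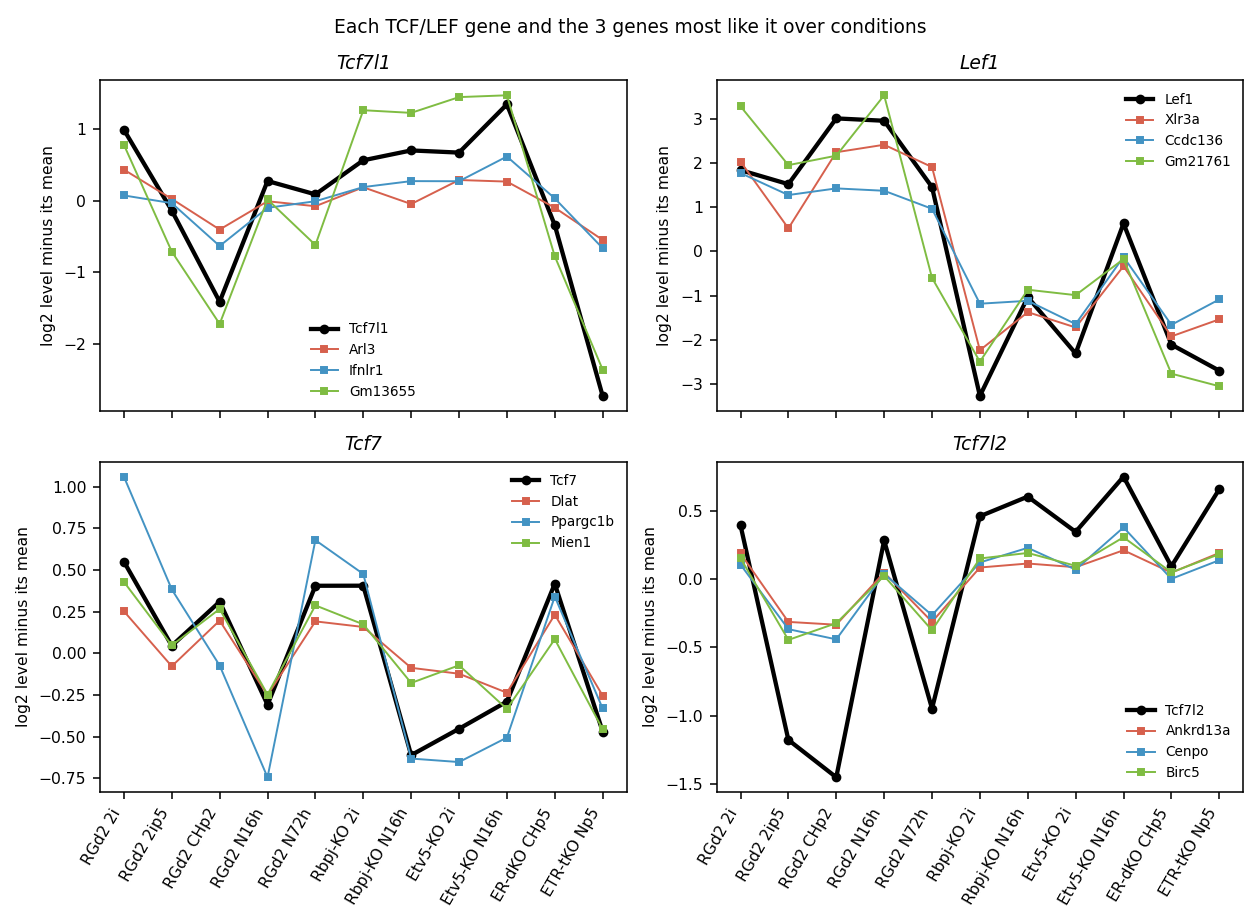
Log2 of the condition mean of normalized counts (plus 1), minus its mean over the 11 conditions, for each TCF/LEF gene (black) and the 3 genes with the highest Pearson's r. Xlr3a follows Lef1 with r = 0.97, and the genes most like Tcf7l2 move over a narrower range than Tcf7l2 does.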

How the data were processed

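Libraries of mouse ES cell RNA were analysed from a table of read counts per gene. Per the labels and the study's methods, the authors used Trim Galore for trimming and TopHat2 for alignment, guided by Gencode M14 models, to the GRCm38/mm10 assembly plus spike-ins, and deposited featureCounts counts of strand-specific, primary, unique matches. Tool versions, and any use of molecular indexes, are not given in the sources used here. Gene symbols came from the table of gene names, and 193 IDs without one held 0.0259% of the counts. All columns were used. The methods name RGd2 N16h as the condition with 2 libraries, whereas the labels give 3 for it and 2 for Etv5-KO N16h, and the labels were followed.

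Size factors were the median of ratios of the 52 spike-ins above 0 in every library. Genes passing filterByExpr were tested in 1 fit of all 32 libraries with edgeR 4.0.16 (R 4.3.3), quasi-likelihood F test, Benjamini-Hochberg adjustment, and called at an adjusted p under 0.05 with a mean of at least 1 FPKM in a group compared. FPKM was computed from gene counts and deposited exonic lengths. The fit was tested on simulated data. Library totals were 5986857 to 71439411 gene reads, and depth limits low values: Lef1 had 23 to 53 reads in Rbpj-KO 2i.

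Replicate numbers are never shared between groups, but Rbpj-KO, Etv5-KO and RGd2 lines recur in 2i and N16h, so the pairing comes from the clonal line. Deviations from the group means of the same line correlated at 0.032 to 0.109 for Rbpj-KO, 0.013 for Etv5-KO and 0.072 to 0.177 for RGd2. Alternatives were TMM, DESeq2 1.42.0 and total spike-in scaling, the DESeq2 Wald test, a fit of only the libraries compared, other filters, the clonal line as replicate block, and leaving out each library. Genes named are the 4 members, the targeted genes, Ctnnb1, the Tle genes, the 4 naive genes, in other lists the 2 genes with the largest called change in each direction, and the 3 most alike genes. Members and lists were chosen with earlier results of these data known.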

Additional observations from a re-analysis of the deposited data

Results flagged for a closer look

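The change of Lef1 from 2i to N16h differed between Rbpj-KO and RGd2 by 1.18 on the log2 scale (SE 0.30, adjusted p = 0.0176, test of the difference in edgeR). The changes of Lef1, Tcf7l1 and Tcf7 differed between Etv5-KO and RGd2 by 1.84 (SE 0.27), 1.37 (SE 0.31) and 1.03 (SE 0.20), with adjusted p of 1.86e-06, 0.00105 and 1.77e-04. The Lef1 differences are in log2 ratios from a low level in 2i, and Lef1 in both mutants stayed below RGd2 in both cultures. Tcf7 itself did not pass the edgeR test between 2i and N16h within Etv5-KO (0.16, adjusted p = 0.427). No test for a single far value was made in groups of 2 or 3 libraries.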

How the results depend on the processing

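Of 1116 results for the 4 genes under an alternative, 1077 kept their side of the threshold, 29 lost it, 10 gained it and 0 reversed a call. The side was judged by adjusted p alone, so the 72 results without the FPKM minimum repeat the main fit and could not change. Of the 1077, 22 changed sign, all short of the threshold. With the clonal line as replicate block, 72 of 72 kept their side and 1 changed sign (Tcf7l2 in Etv5-KO 2i, 0.01 to -0.04), so the pairing changed no call. Tcf7l1 at N16h against 2i was then at -0.70. The cause of each change below was not tested. Lost calls, with TMM and DESeq2 size factors, were Tcf7 at N72h against 2ip5 (0.22 and 0.26), in 2ip5 against 2i (-0.16 and -0.17) and in ER-dKO against 2ip5 (0.17 and 0.16), Tcf7l1 from 2i to N16h in Etv5-KO (0.44 and 0.47) and the Rbpj-KO difference in response of Lef1 (0.98 and 0.99). Tcf7l1 at N16h against 2i was lost with DESeq2 size factors (-0.48), Tcf7 in 2ip5 against 2i in a fit of only the libraries compared (-0.51) and Tcf7l1 within Etv5-KO in the DESeq2 Wald test (0.67). Leaving out 1 library gave, in the order of these 6 results, 0.29 to 0.45, -0.62 to -0.34, 0.32 to 0.45, 0.54 to 0.80, 1.03 to 1.29 and -0.85 to -0.56.

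The number of TCF/LEF genes called became 0 of 1 for N72h against 2ip5 and 1 of 2 for 2ip5 against 2i, ER-dKO against 2ip5 and the Etv5-KO response under TMM and DESeq2 size factors, the last also in the Wald test and 2ip5 against 2i also with only the libraries compared. For Rbpj-KO it became 2 without the low-count filter in 2i, at N16h 2 under both scalings and without that filter and 3 with only the libraries compared, 2 for its response without the FPKM minimum, and for the difference in response 0 under both scalings and 2 without the low-count filter. Leaving out 1 library gave 0 to 1 for N72h against 2ip5 and the Rbpj-KO difference, and 1 to 2 for 2ip5 against 2i, ER-dKO against 2ip5 and the Etv5-KO response.

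From read counts instead of FPKM, the Tcf7l1 share differed from RGd2 by 26.8 (from FPKM 18.8) percentage points in Etv5-KO 2i, 37.1 (32.9) in Etv5-KO N16h, 14.7 (4.0) in Rbpj-KO 2i, 39.7 (31.3) in Rbpj-KO N16h and 8.9 (-0.1) in ER-dKO. Counts of list genes called without the libraries that stand apart were added after seeing the data.

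Over all genes, TMM moved the percentage of called genes that were higher from 18.8 to 44.5 for N16h against 2i, 59.9 to 46.6 for N72h against 2ip5, 67.8 to 43.3 for CHp2 against 2ip5, 5.5 to 52.8 for 2ip5 against 2i, 46.1 to 59.1 and 84.6 to 57.8 for Rbpj-KO in 2i and N16h, 18.0 to 55.4 and 90.0 to 57.5 for Etv5-KO, 80.1 to 52.7 for ER-dKO and 79.8 to 47.5 for ETR-tKO against 2ip5, 76.8 to 44.5 for the Etv5-KO response, and 94.1 to 68.5 and 98.6 to 65.1 for the Rbpj-KO and Etv5-KO differences. DESeq2 size factors moved ETR-tKO against N72h from 60.1 to 49.1. The genes called went from 6043 to 2987 (TMM), 2332 (only the libraries compared) and 3345 (without RGd2 2i replicate 31) for 2ip5 against 2i, from 1312 to 2128, 635 and 2131 (without replicate 33) for Rbpj-KO 2i, and from 4564 to 1603 and 2308 for the Etv5-KO difference (2117 to 7206 on leaving out 1 library). With only the libraries compared they went from 5402 to 3138 for N16h against 2i, 2605 to 3961 for Rbpj-KO N16h, 3937 to 1728 for Etv5-KO 2i and 490 to 232 for the Rbpj-KO difference (244 to 1505 on leaving out 1 library), and without Etv5-KO N16h replicate 18 from 3817 to 1875 at N16h and 4818 to 2936 for the response. Spike-in scaling assumes equal spike-in per RNA input, and Tcf7l2, under 1 FPKM throughout, is limited by depth.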
